A study of Mus musculus with 8 samples.

Results

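Disease-associated microglia are a state of the resident immune cells of the brain that has been described around amyloid plaques, dying neurons and damaged myelin. The 10 genes examined here (Trem2, Tyrobp, Axl, Itgax, Apoe, Lpl, Lyz2, Cst7, Gpnmb and Spp1) were chosen by name, for their part in this state and in the handling of lipids. All 10 were found among the 31406 genes of the count table. Their mRNA was measured by RNA sequencing in primary cultures of wild-type C57/BL6 mouse microglia, prepared from the striatum of pups of 2 to 4 days. The cells were cultured for 15 days and then activated for 48 h with lipopolysaccharide (LPS, a bacterial cell wall component) and interferon-γ, which the methods of the study list as human. The A2A antagonist group (4 libraries) received 200 nM SCH 58261, which blocks the adenosine A2A receptor, at 24, 32 and 40 h of activation. The dual group (4 libraries) received SCH 58261 and, in addition, 200 nM 2-Cl-IB-MECA, an agonist of the adenosine A3 receptor, at the same times. Thus every library carried LPS, interferon-γ and SCH 58261, and the groups differ by the A3 agonist. The titles of the samples and the count columns give this grouping, whereas the treatment field of the labels names 2-Cl-IB-MECA for the other group. The direction of each difference therefore rests on the titles. Total counts per library were 32630602 to 45878639. Activated cells that received vehicle were not analysed here. The cultures came from 4 pregnant animals in all, but neither a litter nor a batch was given for any library, so p-values measure the spread between these libraries, which may be in part technical.

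In disease-associated microglia, lipids and lipoproteins such as ApoE are bound by TREM2, a surface receptor that signals through its adaptor TYROBP. Signalling of this pair is required for the full state, in which cells raise genes for lipid breakdown and uptake (Lpl, Apoe), lysosomal and secreted proteins (Cst7, Gpnmb, Spp1, Lyz2) and surface receptors (Axl, Itgax). Several of these genes are not restricted to microglia: Apoe is also a major product of astrocytes, Lpl of several cell types, and Axl and Spp1 are made by fibroblasts and other cells. In bulk RNA, fewer cells of a type and less RNA per cell cannot be told apart.

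The labelled cell type was compared with markers of the cells that such cultures may hold. Microglia markers were present, with Cd14, Csf1r, Itgam, Ptprc and Cx3cr1 at the top, and their summed level was 1421 to 1460.2 CPM (counts per 1000000 counts of a library, scaled for its composition) in the A2A antagonist libraries and 1443 to 1475 CPM in the dual libraries. Of the 13 microglia markers measured, P2ry12, a receptor of resting microglia, averaged 1.66 ± 0.216 CPM and 2.00 ± 0.461 CPM (SD, n = 4) in the respective groups, and Gpr34 was under 1 CPM. The 10 astrocyte markers summed to more than the microglia markers, from 4483 to 4714 CPM and from 4629 to 4907 CPM, with Gfap and Aqp4 the most abundant. Such a sum follows the few most abundant markers of its list and does not measure the share of a cell type. In the A2A antagonist group, Gfap averaged 1639 CPM and Aqp4 1312 CPM, and of the microglia markers Cd14 averaged 643 CPM. The paper reports high microglial purity by labelling with anti-CD11b antibodies. The 7 fibroblast markers summed to 2457 to 2733 CPM and 2449 to 3074 CPM. Oligodendrocyte markers summed to 339.8 to 376 CPM over all 8 libraries, neuron markers to 119.6 to 135 CPM and endothelial markers to 47.8 to 61.1 CPM. The sums of each list overlapped between the groups, as the plot of marker sums shows. No marker of these cell types was called in edgeR (below). The unadjusted p-value was under 0.05 for 3 of 13 microglia, 3 of 10 astrocyte and 3 of 7 fibroblast markers, beside 12.8% of all genes tested. In log2 fold change (dual against A2A antagonist), 6 fibroblast markers were above and 1 below 0, with a median of 0.10. The 3 fibroblast markers were Col3a1 (0.14), Dcn (0.11) and Lum (0.23). Astrocyte markers had 7 above and 3 below 0, and microglia markers 6 above and 7 below. The share of these other cell types in the levels of Apoe, Axl, Spp1 and Lpl was not tested.

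**Figure D1:**
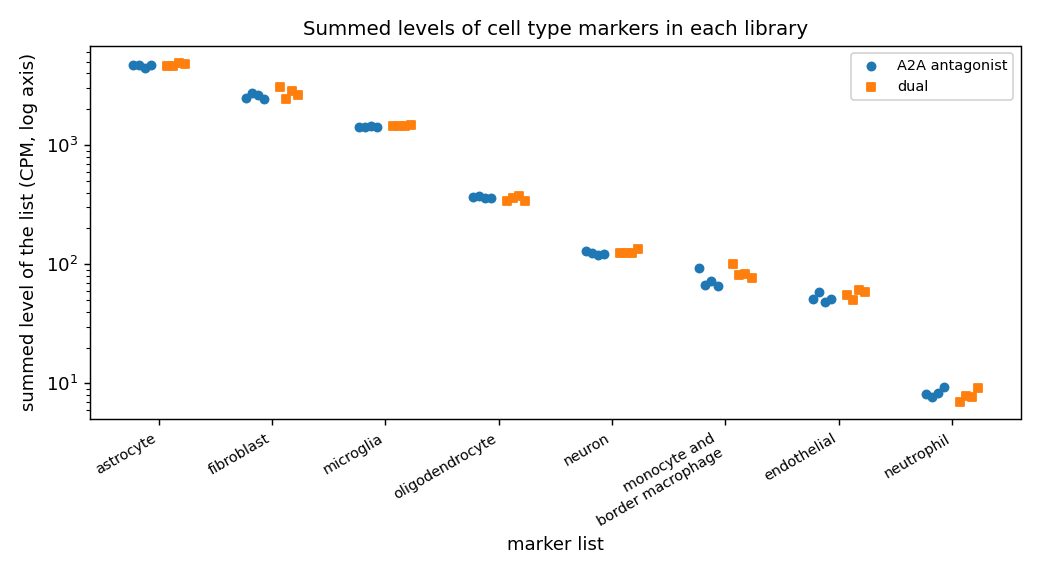
Summed level of each cell type marker list (vertical log axis, CPM) in the 4 A2A antagonist libraries (circles) and the 4 dual libraries (squares), 1 point per library. Astrocyte markers sum to 4483 to 4907 CPM and microglia markers to 1421 to 1475 CPM, and the points of the groups overlap in every list. Sums of different lists do not measure shares of cell types.

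The levels of the genes spanned several orders of magnitude. Per kilobase of exon (RPKM, here CPM divided by the exon length in kilobases), Apoe was highest, with 2303 ± 149 RPKM (SD, n = 4) with the antagonist and 2285 ± 97.9 RPKM (SD, n = 4) with both ligands. Next came Lyz2 with 1882 ± 38.8 RPKM and 2134 ± 68.3 RPKM, and the ranges of these neighbours overlapped, with Apoe above Lyz2 in 7 of 8 libraries. A second tier held Spp1 (135.7 ± 8.10 and 131 ± 14.4 RPKM), Tyrobp (113.5 ± 11.8 and 106 ± 4.20 RPKM) and Axl (66.4 ± 2.87 and 63.1 ± 3.51 RPKM). Spp1 and Tyrobp overlapped in range, although Spp1 was the higher in 8 of 8 libraries, and Axl lay below both. The tier below held Gpnmb (3.43 ± 0.699 and 3.92 ± 0.849 RPKM), Trem2 (3.13 ± 0.370 and 3.00 ± 0.148 RPKM) and Cst7 (3.09 ± 0.222 and 2.22 ± 0.379 RPKM), whose ranges overlapped from one to the next. Lpl (0.607 ± 0.0527 and 0.445 ± 0.0376 RPKM) and Itgax (0.0372 ± 0.0211 and 0.0504 ± 0.0229 RPKM) were the lowest, without overlap with the gene above them. These per-kilobase levels divide by all annotated exon bases of a gene, which include exons of minor transcripts, so the level of a gene with a long annotation such as Lpl (10478 bases) or Trem2 (4946 bases) is a low estimate.

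**Figure D2:**
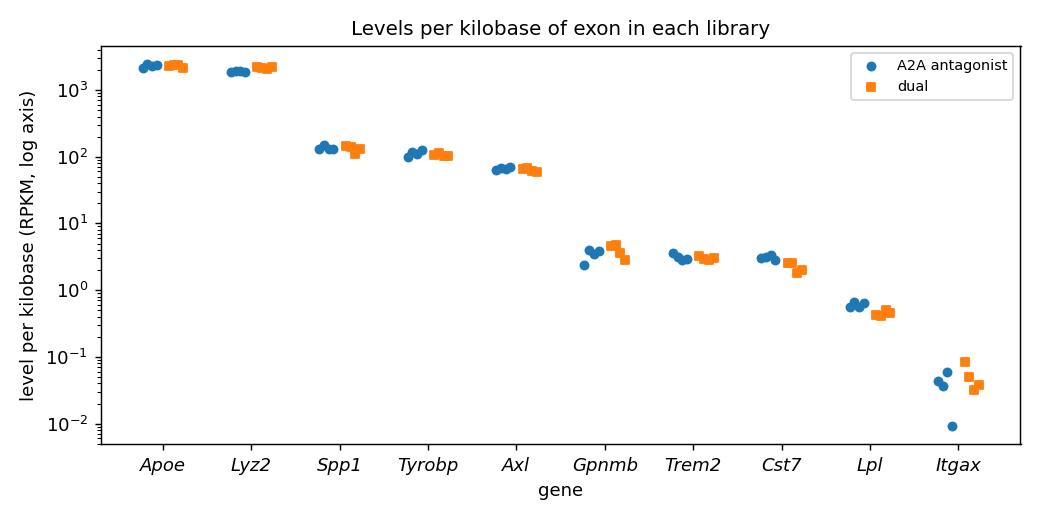
Level per kilobase of exon (vertical log axis, RPKM) of the 10 genes, ordered from the highest to the lowest mean over the 8 libraries, 1 point per library (circles, A2A antagonist; squares, dual). Apoe and Lyz2 lie between 1831 and 2445 RPKM, Spp1, Tyrobp and Axl between 59.1 and 148 RPKM, and Itgax below 0.1 RPKM.

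Together, the 10 genes took 0.764% to 0.852% of the scaled counts of a library. Apoe alone made up 56.5% to 62.2% of their sum and Lyz2 29.2% to 35.8%. By level in CPM, Apoe ranked 8 and Lyz2 15 of 31406 genes, whereas Trem2 ranked 9384 and its adaptor Tyrobp 3384.

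The question for the comparison of the groups was whether the A3 agonist, added to the A2A antagonist, changed these genes. Lyz2, which encodes a lysozyme of the macrophage and microglial lysosome, rose with both ligands, by a factor of 1.13 in mean CPM. Lpl, the lipase that splits the triglycerides of lipoproteins, and Cst7, which encodes cystatin F, an inhibitor of lysosomal cathepsins, had lower values in each dual library than in any A2A antagonist library, at 0.734 and 0.719 of the antagonist mean, but did not pass the test. Trem2, Tyrobp, Axl, Apoe, Gpnmb and Spp1 overlapped between the groups and did not pass it. Itgax was too low to be tested.

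Of the 10 genes, 9 passed the filter on low counts, and 1 of them was called. A call means that edgeR's quasi-likelihood test put the adjusted p-value below 0.05. Among the 18756 genes that passed the filter, 0.208% were called, 0.048% as higher and 0.16% as lower in the dual group. The unadjusted p-value was under 0.05 for 3 of the 9 genes (Lyz2, Lpl and Cst7), beside 12.8% of all genes tested. The groups did not overlap for the same 3 genes, 1 higher and 2 lower in the dual group. Over all genes tested the groups did not overlap for 7.42%, with 3.36% higher and 4.06% lower. The median log2 fold change (dual against A2A antagonist) of the 9 genes was -0.061, with 2 above and 7 below 0, and that of all genes tested was 0.0038. The common biological coefficient of variation was 5.28%.

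**Figure D3:**
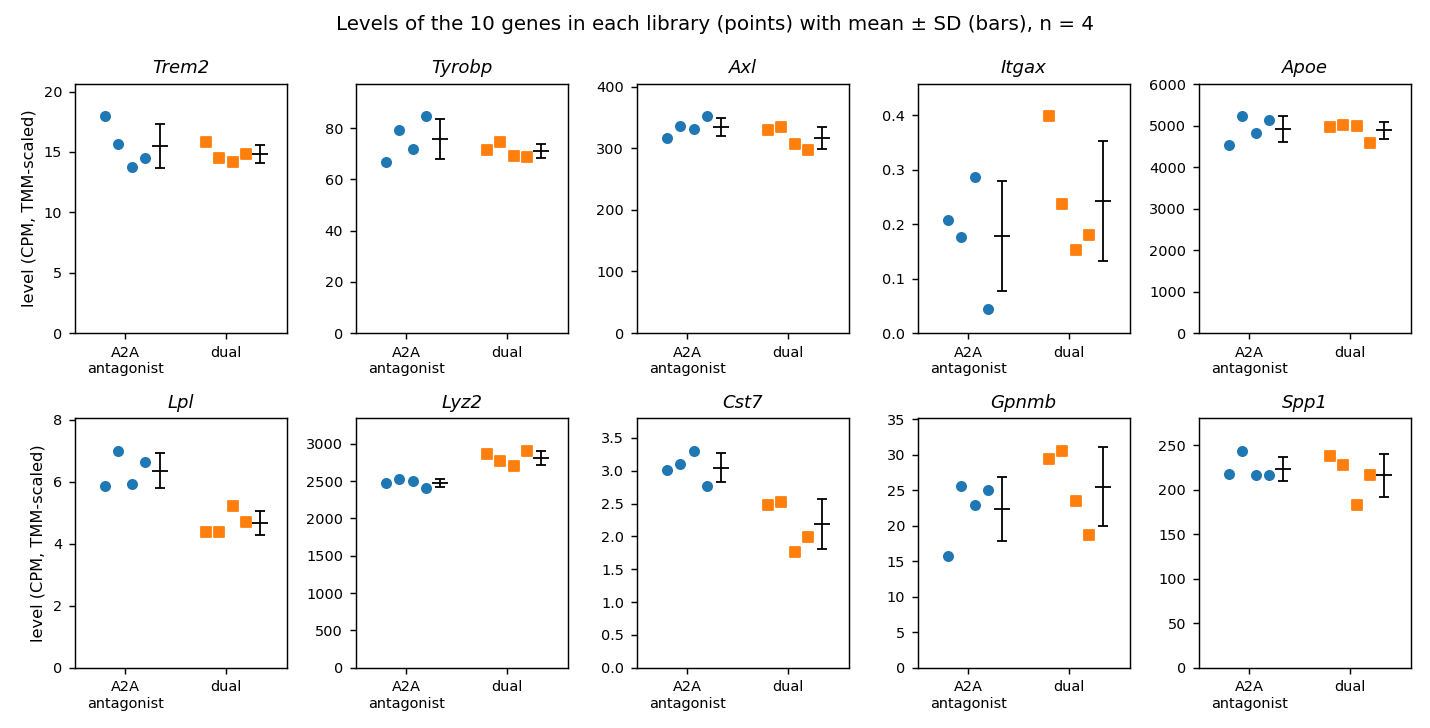
Level of each of the 10 genes (vertical axis, CPM, starting at 0) in the 4 A2A antagonist libraries (circles) and the 4 dual libraries (squares), in the order of replicates 1 to 4, with the mean and SD of each group as a black bar. Lyz2 lies higher and Lpl and Cst7 lie lower in all 4 dual libraries than in any A2A antagonist library, and the other 7 genes overlap.

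**Figure D4:**
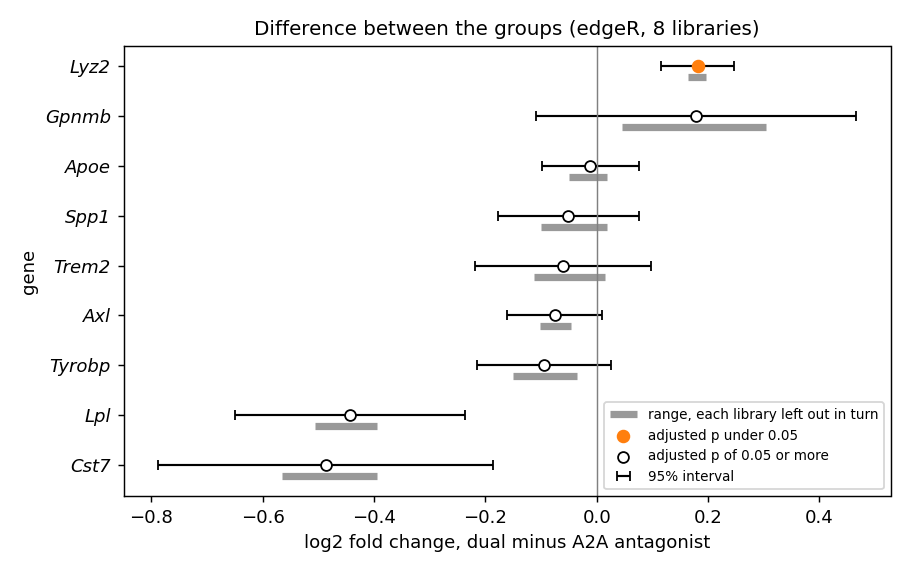
Log2 fold change of the 9 genes tested (horizontal axis, dual minus A2A antagonist) with its 95% interval (black) and the range of values when each library is left out in turn (grey). Lyz2 (filled) has an adjusted p-value under 0.05, while Cst7 and Lpl lie furthest from 0, at -0.49 and -0.44.

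Among the receptors, Trem2 (ENSMUSG00000023992, chromosome 17, 48346401 to 48354147) had 18.0, 15.7, 13.8 and 14.5 CPM in A2A antagonist replicates 1 to 4 and 15.8, 14.5, 14.1 and 14.8 CPM in dual replicates 1 to 4. The groups overlapped, and the highest value was A2A antagonist replicate 1. For Trem2 the fitted log2 fold change was -0.061 (SE 0.075, 95% interval -0.22 to 0.098, adjusted p-value 0.795 in edgeR), and without that library it was 0.015. Tyrobp (ENSMUSG00000030579, chromosome 7, 30413760 to 30417585), which encodes the adaptor that carries the signal of TREM2 and of other receptors into the cell, had 66.9, 79.3, 72.0 and 84.7 CPM with the antagonist and 71.6, 74.7, 69.1 and 68.6 CPM with both ligands. Here, A2A antagonist replicates 2 and 4 stood above each dual library and replicate 1 below each of them. Tyrobp had a log2 fold change of -0.094 (SE 0.057, 95% interval -0.21 to 0.026, adjusted p-value 0.521 in edgeR).

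Axl (ENSMUSG00000002602, chromosome 7, 25757273 to 25788705), a receptor tyrosine kinase that binds dying cells through its ligand GAS6, had 317, 336, 332 and 352 CPM with the antagonist. With both ligands it had 329, 335, 308 and 298 CPM, so that dual replicates 3 and 4 lay below every A2A antagonist library and replicates 1 and 2 among them. Axl had a log2 fold change of -0.076 (SE 0.041, 95% interval -0.16 to 0.010, adjusted p-value 0.462 in edgeR). Itgax (ENSMUSG00000030789, chromosome 7, 128129547 to 128150657), which encodes the integrin subunit CD11c, was counted 8, 8, 12 and 2 times in the A2A antagonist libraries and 13, 9, 7 and 8 times in the dual libraries. These counts correspond to 0.179 ± 0.101 CPM and 0.242 ± 0.110 CPM (SD, n = 4). A difference was not detectable at this depth: without the filter on low counts, its log2 fold change was 0.41 (SE 0.52, adjusted p-value 0.843 in edgeR). Itgax shares 10.7% of its 31-base words with its neighbour Itgad, which itself had 0 to 7 counts per library, so the counts of Itgax are uncertain.

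Apoe (ENSMUSG00000002985, chromosome 7, 19696109 to 19699188) encodes apolipoprotein E, the main carrier of lipids between cells of the brain. It had 4528, 5228, 4811 and 5128 CPM with the antagonist and 4966, 5017, 4985 and 4573 CPM with both ligands. Values of the groups were interleaved, with dual replicate 4 below the other dual libraries. Its log2 fold change was -0.011 (SE 0.042, 95% interval -0.099 to 0.076), the closest to 0 of the 9 genes, with an adjusted p-value of 0.944 in edgeR. Because 162000 to 237760 counts per library stand behind Apoe, counting error is small beside the spread between libraries, which was 6.46% of the mean with the antagonist and 4.29% with both ligands.

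Lpl (ENSMUSG00000015568, chromosome 8, 68880491 to 68907448) had 5.86, 6.99, 5.93 and 6.65 CPM with the antagonist and 4.38, 4.36, 5.21 and 4.71 CPM with both ligands. All 4 dual libraries were therefore below the lowest A2A antagonist library. The means were 6.36 ± 0.552 CPM and 4.67 ± 0.394 CPM (SD, n = 4), from 226 to 318 and from 143 to 239 counts per library. Lpl had a log2 fold change of -0.44 (SE 0.099, 95% interval -0.65 to -0.24), and its adjusted p-value of 0.0636 in edgeR missed the threshold. It was called without the filter on low counts (adjusted p-value 0.00969) and without A2A antagonist replicate 1 (0.0374), and the DESeq2 Wald test gave it no adjusted p-value. Summed astrocyte, fibroblast and microglia markers overlapped between the groups (above), and their part in the level of Lpl was not tested.

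Lyz2 (ENSMUSG00000069516, chromosome 10, 117277331 to 117282321) had 2469, 2529, 2499.8 and 2410.1 CPM with the antagonist and 2862, 2762, 2708 and 2903 CPM with both ligands. Each dual library was above every A2A antagonist library, and the spread within the groups was the smallest of the 10 genes, at 2.06% and 3.20% of the mean. Its group means were 2477 ± 51.0 CPM for the antagonist and 2809 ± 89.8 CPM for both ligands (SD, n = 4). This rise was 0.18 on the log2 scale (SE 0.031, 95% interval 0.12 to 0.25), and its adjusted p-value was 0.0240 in edgeR and 5.02e-06 in the DESeq2 Wald test. It was not called when A2A antagonist replicate 2 (adjusted p-value 0.0608), 3 (0.0791) or 4 (0.0932) or dual replicate 3 (0.0650) was left out, while the log2 fold change stayed between 0.16 and 0.20 with each library left out in turn.

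Lyz2 has a close copy, Lyz1, beside it on chromosome 10, which in the mouse is typical of Paneth cells of the gut, and 32.8% of the 31-base words of Lyz2 occur also in Lyz1. Lyz1 had 19 to 51 counts per library, which was 0.0185% to 0.0466% of the Lyz2 count. With both copies counted together the log2 fold change was 0.18 (adjusted p-value 0.0240 in edgeR), an alternative chosen after seeing the data. With so few Lyz1 counts this sum could hardly differ from Lyz2 alone. It does not test how reads that match both copies were counted. Other myeloid cells also make lysozyme, and monocyte and border macrophage markers summed to 66.1 to 92.5 CPM with the antagonist and 77.4 to 101 CPM with both ligands. Of these 7 markers, Ccr2, Ly6c2, Lyve1 and Cd163 were under 1 CPM and 3 were tested, with values above 0 but no call: Pf4 (55.0 ± 6.82 and 60.8 ± 5.96 CPM, SD, n = 4, log2 fold change 0.14, adjusted p-value 0.427 in edgeR), F13a1 (14.3 ± 4.51 and 18.1 ± 5.38 CPM, 0.34, adjusted p-value 0.462) and Mrc1 (5.05 ± 1.18 and 6.47 ± 1.04 CPM, 0.37, adjusted p-value 0.275). The log2 fold changes of F13a1 and Mrc1 were thus further from 0 than that of Lyz2, with groups that overlapped. Of the 3 tested, 1 (Mrc1) had an unadjusted p-value under 0.05. The 3 neutrophil markers measured of 7 summed to 7.67 to 9.29 CPM and 6.99 to 9.14 CPM. Ngp was under 1 CPM, and the 2 tested moved in opposite directions without a call. Camp had a log2 fold change of -0.29 (adjusted p-value 0.232 in edgeR) without overlap of the groups. S100a8 had 0.32 (adjusted p-value 0.389 in edgeR) with groups that overlapped. For both the unadjusted p-value was under 0.05. Of the 13 microglia markers, 6 were above and 7 below 0 in log2 fold change. For 3 the unadjusted p-value was under 0.05, beside 12.8% of all genes tested. These were Fcrls, an Fc receptor-like gene (33.1 ± 0.903 and 26.2 ± 4.57 CPM, SD, n = 4, log2 fold change -0.33, adjusted p-value 0.0952 in edgeR), Aif1, which encodes IBA1 (58.9 ± 2.61 and 50.9 ± 4.67 CPM, -0.21, adjusted p-value 0.110), and Csf1r, the growth factor receptor of microglia (218 ± 5.47 and 235 ± 8.18 CPM, 0.11, adjusted p-value 0.171). The groups overlapped for Aif1 and did not for Fcrls and Csf1r. The part of these markers in the rise of Lyz2 was not tested.

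Upstream sequence of Lyz2 and its copy is shown because the pair share letters near their start and differ in level by several orders of magnitude. Cst7 and Spp1 are shown because, with Lyz2, they are the genes of the list with the letters AGGAAGT on either strand. The sequences are the 250 bases before the start of the RefSeq transcript (GRCm38.p6), 5′ to 3′ on the strand of the gene, and capitals mark AGGAAGT or its reverse complement, letters bound by PU.1, the transcription factor that defines macrophages and microglia.
Lyz2, chr10:117282273-117282522, minus strand: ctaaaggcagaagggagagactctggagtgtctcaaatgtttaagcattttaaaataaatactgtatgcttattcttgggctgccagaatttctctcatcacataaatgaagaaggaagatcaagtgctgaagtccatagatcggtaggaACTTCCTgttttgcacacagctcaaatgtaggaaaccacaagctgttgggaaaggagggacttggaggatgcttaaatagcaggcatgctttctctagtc
Lyz1, chr10:117292869-117293118, minus strand: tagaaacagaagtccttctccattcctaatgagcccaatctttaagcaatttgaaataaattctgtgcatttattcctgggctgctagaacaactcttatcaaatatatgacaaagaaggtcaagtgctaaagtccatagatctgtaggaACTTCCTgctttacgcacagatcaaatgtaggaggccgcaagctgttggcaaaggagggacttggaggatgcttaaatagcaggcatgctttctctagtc
Cst7, chr2:150570165-150570414, plus strand: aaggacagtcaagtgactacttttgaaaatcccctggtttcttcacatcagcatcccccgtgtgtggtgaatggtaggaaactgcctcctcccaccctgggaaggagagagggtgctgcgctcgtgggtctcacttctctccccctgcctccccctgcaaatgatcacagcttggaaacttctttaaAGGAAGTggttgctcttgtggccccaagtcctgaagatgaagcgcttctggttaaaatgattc
Spp1, chr5:104434861-104435110, plus strand: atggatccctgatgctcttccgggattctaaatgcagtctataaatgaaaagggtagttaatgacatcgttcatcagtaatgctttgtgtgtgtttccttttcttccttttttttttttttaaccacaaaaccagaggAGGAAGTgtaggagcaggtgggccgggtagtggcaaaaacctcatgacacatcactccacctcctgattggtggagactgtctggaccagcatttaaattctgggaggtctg

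The last 100 bases before the start of Lyz2 and Lyz1 were identical at 92 positions, and the whole windows at 152 of 250 positions without gaps, while the mean level was 2477 CPM for Lyz2 and 0.843 CPM for Lyz1 in the A2A antagonist group. In both copies 93 bases separate AGGAAGT from the RefSeq start, in Cst7 56 and in Spp1 105. The gene model of Lyz2 in the count table starts upstream of the RefSeq transcript, so that the last 49 bases of its window lie inside that model, while the other 3 windows lie outside theirs. The search covered both strands of 11 windows of 8 genes of the list (Tyrobp and Lpl had no window), and 3 windows held the letters, beside 7.69% of all 32851 windows of the same length. The letters of the AP-1 factors, TGANTCA, which do not overlap AGGAAGT, were found in 2 of the 11 windows (Itgax and Trem2) beside 6.75% of all windows. Both motifs were chosen after the sequences had been seen, and a match is only a description of the letters.

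Cst7 (ENSMUSG00000068129, chromosome 2, 150570415 to 150578944) had 3.01, 3.10, 3.30 and 2.77 CPM with the antagonist and 2.48, 2.52, 1.76 and 1.99 CPM with both ligands. The groups did not overlap, and dual replicates 3 and 4 were the lowest. The means were 3.05 ± 0.219 CPM and 2.19 ± 0.374 CPM (SD, n = 4), from 116 to 141 and from 81 to 96 counts per library. The log2 fold change of Cst7, -0.49 (SE 0.14, 95% interval -0.79 to -0.19), was the furthest from 0 of the 9 genes, with an adjusted p-value of 0.145 in edgeR that stayed above 0.05 in each alternative that gave one. The 95% intervals are not adjusted for the number of genes tested.

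Gpnmb (ENSMUSG00000029816, chromosome 6, 49036546 to 49070929) encodes a glycoprotein of lysosomes and the cell surface that is raised in lipid-laden macrophages. It had 15.8, 25.7, 22.9 and 25.1 CPM with the antagonist and 29.4, 30.5, 23.4 and 18.7 CPM with both ligands. Of the 9 genes tested it varied most within both groups, by 20.4% and 21.7% of the mean, with A2A antagonist replicate 1 lowest and dual replicates 1 and 2 highest. Gpnmb had a log2 fold change of 0.18 (SE 0.14, 95% interval -0.11 to 0.47, adjusted p-value 0.631 in edgeR), close in size to that of Lyz2 but with an interval that includes 0. It was 0.046 without A2A antagonist replicate 1 and 0.30 without dual replicate 4.

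Spp1 (ENSMUSG00000029304, chromosome 5, 104435118 to 104441050) encodes osteopontin, a secreted matrix protein and ligand of integrins. It had 218, 244, 216 and 217 CPM with the antagonist and 237, 227, 183 and 216 CPM with both ligands. A2A antagonist replicate 2 stood above the other 3 of its group, and dual replicate 3 was the lowest of all 8 libraries. Spp1 had a log2 fold change of -0.051 (SE 0.060, 95% interval -0.18 to 0.076, adjusted p-value 0.784 in edgeR), which was 0.019 without dual replicate 3. Of the 1648 exonic bases of Spp1, 309 lie also in Gm42793 on the same strand, which had 4 to 11 counts per library.

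Within the list, the likeness of pattern over the 8 libraries was measured by the correlation of log2 CPM for 36 pairs of the 9 genes tested. The 3 pairs with the highest Pearson r were Tyrobp with Axl (r = 0.84, Spearman's rho = 0.93), Apoe with Gpnmb (r = 0.82, rho = 0.74) and Tyrobp with Apoe (r = 0.79, rho = 0.88). In the exact permutation test over 8 libraries, Tyrobp with Axl had p = 0.00866 for r and p = 0.00223 for rho (0.156 and 0.0804 after adjustment over the 36 pairs). For Apoe with Gpnmb the exact permutation p-values were 0.0152 and 0.0458 (0.182 and 0.330 adjusted), and for Tyrobp with Apoe they were 0.0205 and 0.00724 (0.185 and 0.130 adjusted). No pair passed after adjustment. Leaving out the 2 libraries furthest from the median of the first gene gave r = 0.75, 0.20 and 0.74 for these pairs, so that of Apoe with Gpnmb rests on such libraries, namely A2A antagonist replicate 1 and dual replicate 4, which had the lowest Apoe. The pair with the lowest r was Lpl with Lyz2, whose libraries form separate clusters by group, so that a pooled value would restate the difference between the groups. With each group centred on its own mean, r for Lpl with Lyz2 was -0.24 (p = 0.595 in an exact permutation test within groups, two-sided, 0.715 adjusted over the 36 pairs). Within groups r was 0.81 for Tyrobp with Axl, 0.89 for Apoe with Gpnmb and 0.84 for Tyrobp with Apoe, and 6 of the 36 pairs had an exact permutation p under 0.05 but 0 after adjustment (smallest 0.104).

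The wider pathway was read from 4 further lists with 74 genes, of which 70 passed the filter. Of these, 2 were called, both lower in the dual group (2.86%, beside 0.16% of all genes tested as lower), and 0 as higher. The lists were chosen with earlier results of these data known, so such shares describe the lists and are not a test of them. For 16 of the 70 the unadjusted p-value was under 0.05, beside 12.8% of all genes tested. The called genes were the chemokines Ccl3 and Ccl4, which attract monocytes and belong to the disease-associated list but also to the general inflammatory response. Ccl3 fell from 189 ± 19.8 CPM to 146 ± 12.01 CPM (mean ± SD, n = 4), which is -0.37 on the log2 scale (SE 0.063, adjusted p-value 0.0240 in edgeR), without overlap of the groups. Ccl4 fell from 92.6 ± 12.6 CPM to 69.7 ± 6.96 CPM (mean ± SD, n = 4), which is -0.41 on the log2 scale (SE 0.078, adjusted p-value 0.0325 in edgeR), although its groups overlapped. Neither was called when dual replicate 3 or any of A2A antagonist replicates 2, 3 and 4 was left out, and Ccl3 alone was called without dual replicate 1 or without dual replicate 4.

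The other 21 of the 23 disease-associated genes, which include the cathepsins Ctsb, Ctsd, Ctsl and Ctsz, were not called. The list as a whole had 7 genes above and 16 below 0 with a median of -0.049. For 10 of the 23 the p-value before adjustment was below 0.05. Over all genes tested this share was 12.8%, beside which the counts of each list below are also to be read. Of the 11 genes around TREM2 and TYROBP signalling, 0 were called in edgeR (2 at an unadjusted p-value under 0.05). Among those with a mean of at least 1 CPM, the highest value was that of Cd33, a sialic acid receptor that dampens microglial uptake, with a log2 fold change of 0.22 (SE 0.046, adjusted p-value 0.0606 in edgeR). The lowest value among those was that of Hcst, an adaptor related to TYROBP, with -0.16 (SE 0.20, adjusted p-value 0.794 in edgeR). Cd33 had 60.5 ± 2.33 CPM with the antagonist and 70.2 ± 4.35 CPM with both ligands (SD, n = 4) without overlap. It was called in the DESeq2 Wald test, without the filter on low counts (adjusted p-value 0.00365 in edgeR) and without A2A antagonist replicate 1. With RLE scaling, with the replicate block or with any other library left out, Cd33 was not called. Of the 4 genes of the family of Axl and its ligands 0 were called (1 at an unadjusted p-value under 0.05), with the ligand Pros1 at 0.080 and the receptor Tyro3 at -0.032. Of the 32 genes for uptake, storage and efflux of lipids 0 were called (3 at an unadjusted p-value under 0.05), and their median was -0.0100. The extremes of this list, among genes with a mean of at least 1 CPM, were the fatty acid binding proteins Fabp3 at 0.29 (SE 0.19, adjusted p-value 0.560 in edgeR) and Fabp7 at -0.10 (SE 0.031, adjusted p-value 0.153 in edgeR). In the DESeq2 Wald test, 5 genes of the wider lists were called (Ccl3, Ccl4, Cd33, Fabp7 and Lilrb4a). Without the filter on low counts 7 were called (Ccl3, Ccl4, Cd33, Cd52, Fth1, Lilrb4a and Lrp1).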

How the data were processed

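Alignment by the authors was with Hisat2, against mouse sequence from Ensembl, and featureCounts 1.5.0-p3 gave reads per gene (mm10 in the submitters' processing notes). The deposited values used are raw counts per gene, not normalized or pooled. Whether counting used the strand is not given in the sources used here. Their columns of normalized values, FPKM, fold changes and p-values were not used, and 9 columns of control libraries that carry no sample of the series were left out. The members had the same antagonist counts in both deposited tables. Total counts ranged from 32630602 to 45878639 per library. Replicate pairs differed by a chi-square per degree of freedom of 3.58 to 8.65, so none was a copy. The positions in the files match those of GENCODE M21 for 97.5% of genes and all members. Coordinates are GRCm38.

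Genes were filtered with filterByExpr (minimum count 10), scaled by TMM and tested with edgeR 4.0.16 (R 4.3.3, quasi-likelihood F test, two-sided, no covariate, Benjamini-Hochberg over all genes tested, threshold 0.05). SEs derive from the F statistic. Alternatives were RLE scaling, DESeq2 1.42.0, no filter, a replicate block and leaving out each library. The script was tested on simulated data. Members, lists and the rule for named genes (called genes of a wider list, otherwise its largest rise and fall at 1 CPM or more) were chosen with earlier results of these data known. Of the lists, Gpihbp1, Siglech, Cldn5, S100a9, Ly6g, Mpo and Elane were not analysed here.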

Additional observations from a re-analysis of the deposited data

Results flagged for a closer look

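In 2 of the 20 groups of 4 libraries checked (10 genes in 2 groups), 1 library stood far from the other 3 by Dixon's criterion, which chance meets in about 1 of 20. Apoe in dual replicate 4 had 4573 CPM where the other dual libraries had 4966 to 5017 CPM. Spp1 in A2A antagonist replicate 2 had 244 CPM where the others of that group had 216 to 218 CPM.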

How the results depend on the processing

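Of the 111 values of single members under the alternatives, 99 kept their direction and neither gained nor lost a call. These include the DESeq2 values of Lpl, Cst7 and Itgax, which had no adjusted p-value. Most of the 99 belong to genes that were not called above, and 8 are values of Lyz2. Of the rest, 5 changed direction, 5 lost the call, all of them Lyz2, and 2 gained a call, both of them Lpl. The number of genes called over all genes, 39 in the analysis above, was 381 in DESeq2, 366 without the filter on low counts and 17 with the replicate block, and 0 to 172 with each library left out in turn (0 without A2A antagonist replicate 4 or dual replicate 3, 172 without A2A antagonist replicate 1). Members called (1 above) numbered 2 without the filter and 0 with the replicate block, where Lyz2 had an adjusted p-value of 0.0778 in edgeR, and 0 to 2 with each library left out. Wider-list genes called (2 above) numbered 5 in DESeq2, 7 without the filter and 0 to 6 with each library left out. The block lowered the count of calls, but libraries with the same replicate number did not deviate together (r from -0.14 to -0.044 over 13716 genes) and 0 of 8 libraries correlated best with its own number, so the numbers were not taken as pairs. Between different numbers r ran from -0.073 to 0.147. It was highest for A2A antagonist replicates 2, 4, 1 and 3 with dual replicates 3 (0.147), 2 (0.141), 4 (0.138) and 1 (0.051), respectively. Whether such libraries share a litter or batch was not tested. With each library left out in turn the log2 fold change changed sign for Trem2 (-0.11 to 0.015), Apoe (-0.050 to 0.019) and Spp1 (-0.10 to 0.019). The cause of these changes was not tested. RLE scaling changed no call of a member. Depth limits Itgax, with 2 to 13 counts per library, and leaves counting error visible in Cst7.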
